A study of Mus musculus with 14 samples.

Results

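The change of each mRNA after joint loss of the citrate-cleaving enzyme ACLY and the acetate-activating enzyme ACSS2 was compared with the sum of the changes after each single loss. The cells were mouse hepatocellular carcinoma (HCC) cells of 4 genotypes, and poly(A) RNA had been sequenced in 14 libraries. Of 24972 gene symbols, 12711 averaged 10 or more normalized counts over all libraries and were tested. The quantity tested was (DKO1 − ACLY KO) − (ACSS2 KO − WT) on log2(normalized count + 1), called the interaction here. An interaction above 0 places the double knockout above the sum of the single knockouts, and one below 0 places it below that sum.

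ACLY cleaves citrate in the cytosol and nucleus and ACSS2 ligates acetate to coenzyme A, and both yield the acetyl-CoA that is used for sterol synthesis, fatty acid synthesis and histone acetylation. In liver cells citrate is the usual source, and acetate taken up or released inside the cell is the other. Cells without ACLY are known to raise ACSS2 and to draw on acetate.

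The 4 WT libraries came from the line D42V and the 4 ACLY KO libraries from D42C4V. The 3 ACSS2 KO libraries came from D42 Sg2-3 and the 3 DKO1 libraries, which lack both enzymes, from D42C4 Sg2-2. The cells derive from tumors induced with diethylnitrosamine in mice whose Acly gene carried loxP sites. ACLY KO cells were made with adenoviral Cre and grown from 1 cell, and WT and ACLY KO cells were then used as bulk populations with an empty LentiCRISPR vector. ACSS2 KO and DKO1 are each a clone, edited with a guide to the first exon of Acss2, so that genotype and clone cannot be told apart. Cells were maintained in DMEM/F12 with 10% calf serum and kept for 24 hours in DMEM with 10% calf serum before extraction. The study calls its samples biological replicates. The labels and methods do not say whether the libraries of a genotype came from separate cultures, so the p-values measure the spread between these libraries.

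Acly (chr11:100476353-100528000, GRCm38) and Acss2 (chr2:155517948-155585724) were read first. Acly had 1084, 971, 984 and 965 normalized counts in ACLY KO and 956, 949 and 931 in DKO1, all below the lowest WT or ACSS2 KO library, and its interaction was 0.0068 (adjusted p = 0.96, limma), a value near 0 whose sign varied with the scaling. Acss2 had 239, 252, 233 and 224 normalized counts in WT, 787, 660.4, 739 and 685 in ACLY KO, 127, 135 and 135 in ACSS2 KO and 578, 571 and 455 in DKO1. The targeted mRNA was therefore still present in ACSS2 KO, and in DKO1 it was higher than in WT. Its interaction of 0.41 (adjusted p = 0.037) did not pass the threshold in most of the 14 fits that left out 1 library.

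Totals of normalized counts were between 23565707 and 26946164, and the depth roughly implied by the most frequent low value of a library, taken as 1 read, was between 19169815 and 33531545 reads. Values depended on transcript length within genotypes. The Spearman correlation of a library's deviation from its genotype mean with length was lowest in DKO1 replicate 4 (-0.606) and WT replicate 2 (-0.527). ACLY KO replicate 4 (-0.514) and ACSS2 KO replicate 1 (-0.476) were close to these. It was highest in DKO1 replicates 1 (0.57) and 3 (0.532). Across 12609 genes the interaction itself had a Spearman correlation of -0.283 with length, which is across genes and not across replicates. Results that move when DKO1 replicate 4 and WT replicate 2 are left out together are also given without them. ACLY KO replicate 4 and ACSS2 KO replicate 1 stay in that fit, so it does not remove every library with such a trend. Of 10 hepatocyte markers 6 passed the filter, and their summed level was between 26340 and 65070 normalized counts in every library. Of the markers of other cell types, 7 of 10 for fibroblasts and stellate cells, 9 of 10 for cholangiocytes, 2 of 10 for endothelium and 2 of 10 for leukocytes passed the filter.

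Joint loss departed from the sum for 3442 genes (27.1% of those tested; adjusted p under 0.05, limma with the Benjamini-Hochberg adjustment). DKO1 lay above the sum for 1524 genes (12%) and below it for 1918 (15.1%). The median interaction of all genes was -0.0085. With equal library totals the split was 973 above and 2487 below and the median of all genes was -0.159, so that the size of the excess below the sum depended on the scaling. Without DKO1 replicate 4 and WT replicate 2 the counts were 2713 above and 2898 below. All 3442 kept the sign of the interaction in each of the 14 fits that left out 1 library. They were called with all libraries, so a kept sign is a weak check. The numbers called in those fits ranged from 1133 to 1975 above the sum and from 1502 to 2286 below it. At the stricter limits of an absolute log2 value over 1.5 and an adjusted p under 0.01, 201 genes (1.58%) lay above the sum and 385 (3.03%) below it.

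Some genes responded to ACSS2 loss in opposite directions with and without ACLY. Of the 12711 genes tested, ACSS2 loss raised 362 in WT cells and lowered them in ACLY KO cells. It lowered 242 in WT cells and raised them in ACLY KO cells. Both effects and the interaction had to have an adjusted p under 0.05. For ACLY loss, by the same limits, the numbers were 216 raised in WT and lowered in ACSS2 KO cells, and 130 lowered in WT and raised in ACSS2 KO cells.

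The 1250 genes with an absolute interaction of at least 1 and an adjusted p under 0.05 (9.83% of those tested, 444 or 3.49% above the sum and 806 or 6.34% below it) were sorted by pattern. The pattern uses the same coefficients as the test, so its counts are a description. In buffered genes (619, or 49.5%), DKO1 stopped short of the sum without passing 0.5 beyond WT on the other side. In reversed genes (212, or 17%), the singles summed one way and DKO1 moved by more than 0.5 the other way. In synergistic genes (145, or 11.6%), DKO1 went further than the sum. Both single effects reached 0.5 in the same direction in only 5 of these. In emergent genes (87, or 6.96%), neither single effect nor their sum reached 0.5, and in genes with opposed singles (187, or 15%) the single effects canceled to under 0.5. The median absolute interaction was 1.56 in buffered, 2.25 in reversed, 1.39 in synergistic, 1.27 in emergent and 1.47 in opposed genes. Buffered, reversed and opposed genes lay mostly below the sum (406, 148 and 135 genes), and emergent genes more often above it (48 against 39). These numbers depend on the limit of 0.5. With a limit of 1, reversed genes numbered 49, synergistic 76 and emergent 311, and with 0.25, reversed genes numbered 378 and emergent 18. Without DKO1 replicate 1 the number of emergent genes was 171, and without DKO1 replicate 3 it was 137. A sum on the log2 scale is a product of fold changes, so the sign was also read from the mean counts themselves, and it was the same for 1250 of 1250 genes.

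**Figure D1:**
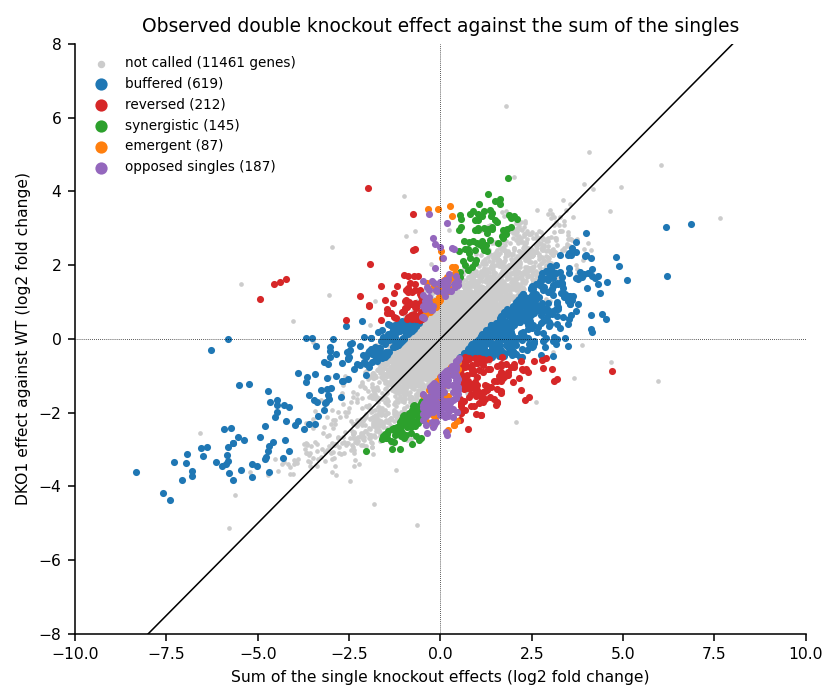
Each point is a gene, with the sum of its single knockout effects against WT (log2 fold change) on the x axis and its DKO1 effect against WT on the y axis. The diagonal marks equality with the sum, and colored points are the 1250 genes sorted by pattern, of which 619 were buffered.

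The examples of each pattern, and the rankings given with them, are limited to genes that average 50 or more normalized counts and kept their sign whichever library was left out. In 330 of the 619 buffered genes both single effects reached 0.5 in the same direction. That held for 28 of the 212 reversed genes and 5 of the 145 synergistic genes. Gja1, which encodes the gap junction protein connexin 43 (chr10:56377330-56402513), had 697, 584, 720.5 and 740.3 normalized counts in WT, 49.2, 56.8, 64.5 and 49.0 in ACLY KO, 51.1, 50.7 and 57.8 in ACSS2 KO and 69.5, 50.5 and 81.6 in DKO1. All 4 WT libraries were high and the 10 others were low and overlapped between genotypes. The singles summed to -7.28 on the log2 scale and DKO1 reached -3.35, an interaction of 3.93 (standard error 0.222, adjusted p = 8.1e-08). Shmt1, the cytosolic serine hydroxymethyltransferase, and Itpripl2 followed with interactions of 3.49 and 3.27.

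The buffered genes with the largest interactions below the sum rose in both singles and were nearer to WT in DKO1. Abat, the transaminase that degrades GABA (chr16:8513429-8621568), had 31.2, 18.5, 23.9 and 27.4 normalized counts in WT, 107, 122, 146 and 114 in ACLY KO, 112, 132 and 130.4 in ACSS2 KO and 38.8, 40.8 and 30.5 in DKO1. The single knockouts overlapped at a high level, and DKO1 overlapped the top of the WT range (interaction -3.99, standard error 0.2502, adjusted p = 2.2e-07). Rtn4rl1, a Nogo receptor homolog, and Ddr2, a receptor tyrosine kinase for collagen, had interactions of -3.48 and -3.08.

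Among reversed genes above the sum, the 4 with the largest interactions lie on the Y chromosome. Ddx3y, an RNA helicase gene (chrY:1260771-1286629), had 1499.8, 1612, 1679.5 and 1740.3 normalized counts in WT, 445, 301, 354 and 323 in ACLY KO, 317, 338 and 309.6 in ACSS2 KO and 4990.0, 4839 and 4060.1 in DKO1. The single knockouts overlapped at a low level, WT lay above them and DKO1 above WT, without overlap. The interaction was 6.05 (standard error 0.168, adjusted p = 4.8e-10). Kdm5d, a histone H3K4 demethylase gene (chrY:897788-956786), had 513, 365, 558 and 541 in WT, 105, 76.5, 98.6 and 85.7 in ACLY KO, 86.0, 78.2 and 87.9 in ACSS2 KO and 1369, 1390.5 and 586 in DKO1. Its order was the same, with DKO1 replicate 4 the lowest of DKO1 and still above the highest WT library (interaction 6.02, standard error 0.366, adjusted p = 1.8e-07). Eif2s3y and Uty had interactions of 5.93 and 5.86. All 5 tested genes of this chromosome were called above the sum, and since they are linked they are not separate observations.

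The top reversed genes below the sum, Kctd15 and Ogdhl, rose in both singles and fell below WT in DKO1. Kctd15, which encodes a BTB domain protein (chr7:34639014-34656732), had 46.4, 53.4, 48.4 and 38.6 normalized counts in WT, 102, 102, 91.4 and 81.4 in ACLY KO, 220.2, 209.9 and 214 in ACSS2 KO and 25.9, 17.3 and 21.98 in DKO1. The genotypes did not overlap, with ACSS2 KO highest and DKO1 lowest (interaction -4.27, standard error 0.210, adjusted p = 3.0e-08). Ogdhl, a homolog of the 2-oxoglutarate dehydrogenase subunit (chr14:32322019-32348151), had 109.9, 111, 113 and 139.5 in WT, 399, 386, 348 and 369 in ACLY KO, 319.8, 321 and 327 in ACSS2 KO and 62.7, 37.4 and 64.2 in DKO1. Both singles stood above WT and DKO1 below it, again without overlap (interaction -4.24, standard error 0.226, adjusted p = 5.7e-08). Ephb2, an ephrin receptor, was also below WT in DKO1 and above it in both singles, with an interaction of -3.59. Fmo2, a flavin monooxygenase, was high in ACSS2 KO only (253, 253 and 316 normalized counts, against at most 33.0 in the other genotypes), and its interaction was -3.42.

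The top synergistic genes above the sum rose in ACLY KO and further in DKO1. Hist1h2bc, a histone H2B gene with near-identical copies between which reads may be split (chr13:23684199-23692908), had 321, 345, 323 and 307 normalized counts in WT, 707, 568, 688 and 682 in ACLY KO, 338, 279 and 272 in ACSS2 KO and 2572, 3072 and 5883 in DKO1. WT and ACSS2 KO overlapped, ACLY KO lay above both and DKO1 above ACLY KO (interaction 2.58, standard error 0.299, adjusted p = 4.0e-05). Guca2b, which encodes the peptide hormone uroguanylin (chr4:119656607-119658954), had 41.0, 30.2, 46.2 and 29.4 in WT, 88.1, 54.5, 65.2 and 61.1 in ACLY KO, 24.6, 28.0 and 35.4 in ACSS2 KO and 193, 242 and 575 in DKO1, in the same order of genotypes (interaction 2.47, standard error 0.449, adjusted p = 0.0013). DKO1 replicate 4 was the highest for both, and without it the interactions were 2.23 for Hist1h2bc and 2.00 for Guca2b. Ripply1 and the chemokine gene Ccl8 had interactions of 2.46 and 2.34.

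The top synergistic genes below the sum fell in ACLY KO and further in DKO1. Rnf219, a RING finger gene (chr14:104477536-104522645), had 345, 352, 396 and 385 normalized counts in WT, 258, 209.5, 214 and 220.5 in ACLY KO, 313, 359 and 389 in ACSS2 KO and 37.6, 51.3 and 64.1 in DKO1. WT and ACSS2 KO overlapped and DKO1 was lowest (interaction -2.08, standard error 0.212, adjusted p = 1.3e-05). Shtn1, which encodes the axon guidance protein shootin (chr19:58973356-59076100), had 1099, 1020.3, 1129 and 1202 in WT, 525, 526, 544 and 485 in ACLY KO, 1400.1, 1334 and 1368 in ACSS2 KO and 193, 169 and 204 in DKO1. The genotypes did not overlap, and ACSS2 loss raised it in WT cells (0.30) and lowered it in ACLY KO cells (-1.46). The interaction was -1.76 (standard error 0.110, adjusted p = 2.2e-07). The homeobox gene Lhx6 and the adenosine receptor gene Adora1 had interactions of -1.70 and -1.67.

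In emergent genes DKO1 departed from the sum while neither single effect reached 0.5. Tat, the liver enzyme tyrosine aminotransferase (chr8:109990437-109999803), had 36.0, 26.4, 25.8 and 23.5 normalized counts in WT, 33.1, 22.6, 30.0 and 26.5 in ACLY KO, 18.6, 30.8 and 30.3 in ACSS2 KO and 385, 336 and 276 in DKO1. The 11 other libraries overlapped and all 3 DKO1 libraries lay above them (interaction 3.60, standard error 0.298, adjusted p = 2.4e-06). S100g, a calcium-binding protein gene (chrX:162961992-162964599), had 22.7, 35.9, 33.6 and 35.1 in WT, 29.6, 36.8, 30.0 and 39.7 in ACLY KO, 32.8, 35.7 and 37.7 in ACSS2 KO and 218, 292 and 929 in DKO1. DKO1 replicate 4 was again the highest, and the interaction of 3.32 (standard error 0.526, adjusted p = 4.7e-04) was 2.697 without it. Ephx2, the soluble epoxide hydrolase, and Mcub, an inhibitory subunit of the mitochondrial calcium uniporter, had interactions of 3.03 and 1.52.

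Chst11, a chondroitin sulfotransferase gene (chr10:82985498-83195900), had the largest emergent interaction below the sum. It had 111, 76.9, 123 and 143 normalized counts in WT, 123, 109, 127 and 88.2 in ACLY KO, 122, 139 and 167 in ACSS2 KO and 22.5, 22.1 and 18.5 in DKO1, and only DKO1 stood apart (interaction -2.71, standard error 0.281, adjusted p = 1.6e-05). Casd1, a Golgi enzyme that transfers acetyl groups from acetyl-CoA to sialic acid (chr6:4600839-4643355), had 375, 413, 436 and 429.8 in WT, 559.9, 559, 606 and 554 in ACLY KO, 350.2, 405 and 413 in ACSS2 KO and 78.8, 77.1 and 88.6 in DKO1. ACLY KO was highest, WT and ACSS2 KO overlapped, and DKO1 was lowest (interaction -2.705, standard error 0.120, adjusted p = 1.6e-08). Rab32, a small GTPase gene, and Gprc5b, an orphan receptor gene, both had interactions of -2.67.

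For Krt4, Sbsn, Cd248 and Sall2, the largest genes with opposed singles, the ACLY KO and ACSS2 KO means lay on opposite sides of WT and DKO1 went beyond ACLY KO. Krt4, a keratin gene (chr15:101918535-101924735), had 217, 212, 206 and 236 normalized counts in WT, 414, 375, 518 and 398 in ACLY KO, 140.2, 136 and 145 in ACSS2 KO and 1199.8, 1203 and 1214 in DKO1. The 4 genotypes did not overlap (interaction 2.14, standard error 0.138, adjusted p = 2.8e-07). Sbsn, the epidermal protein suprabasin (chr7:30751471-30756134), had 177, 183, 94.8 and 149.5 in WT, 243, 260.5, 324 and 281 in ACLY KO, 98.7, 108 and 96.7 in ACSS2 KO and 646, 697 and 1147 in DKO1. DKO1 was highest and ACLY KO next, while WT and ACSS2 KO overlapped (interaction 2.07, standard error 0.324, adjusted p = 4.2e-04).

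In the other direction, Cd248, the stromal surface protein endosialin (chr19:5068078-5070682), had 66.4, 60.8, 47.5 and 61.2 normalized counts in WT, 39.5, 42.7, 31.1 and 38.3 in ACLY KO, 108, 91.8 and 108 in ACSS2 KO and 10.6, 11.2 and 5.73 in DKO1. ACSS2 KO was highest and DKO1 lowest, with no overlap between genotypes (interaction -2.77, standard error 0.293, adjusted p = 1.8e-05). Sall2, a zinc finger transcription factor gene (chr14:52311172-52328762), had 511, 433, 513 and 528 in WT, 327, 298, 312 and 258 in ACLY KO, 843, 973 and 910.3 in ACSS2 KO and 80.7, 86.8 and 89.5 in DKO1. Its genotypes stood in the same order (interaction -2.66, standard error 0.138, adjusted p = 4.6e-08). Il18rap and Serpini1 above the sum had interactions of 1.79 and 1.77, and Accs and Pros1, the anticoagulant protein S, below it had -2.46 and -2.32.

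**Figure D2:**
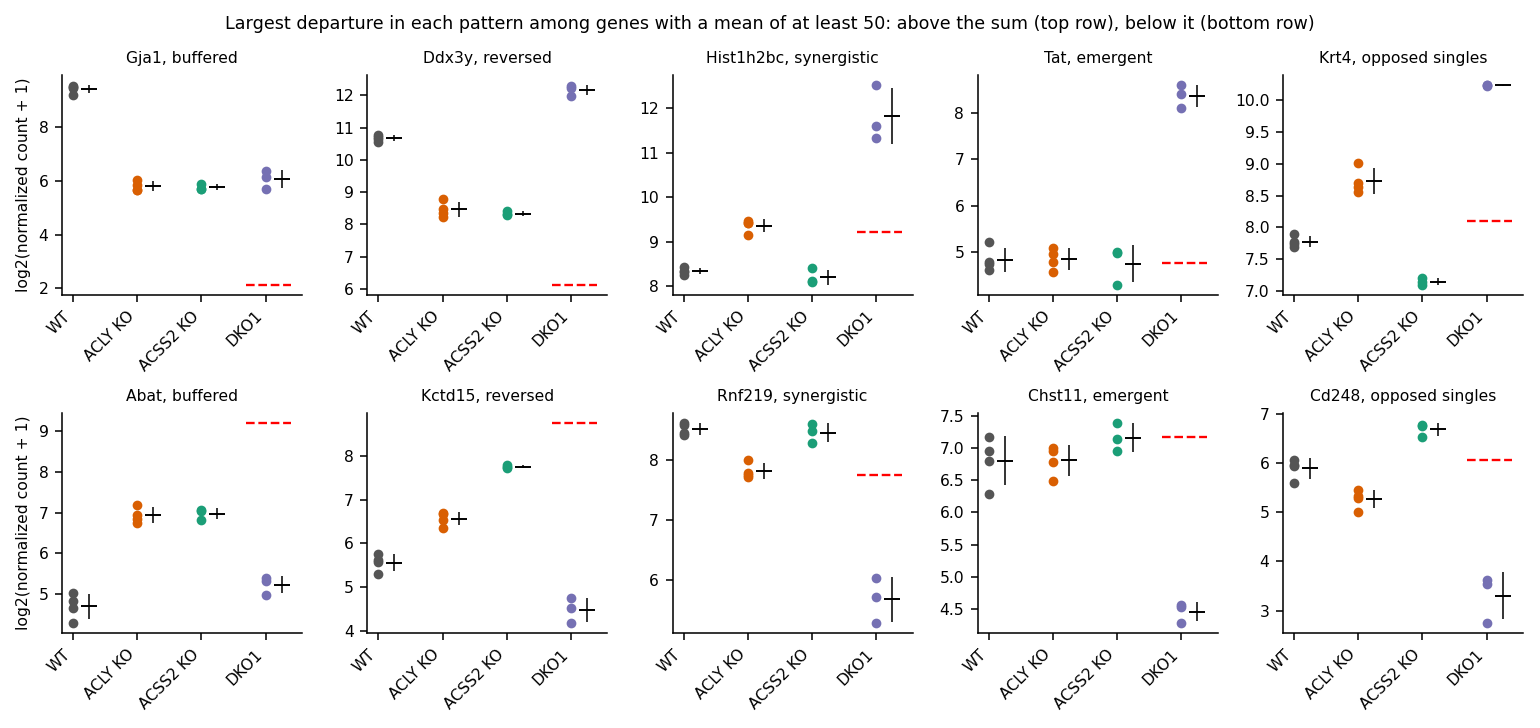
Points are libraries, with log2(normalized count + 1) on the y axis, for the gene with the largest interaction above the sum (top row) and below it (bottom row) in each pattern, where the gene averages 50 or more normalized counts; the cross beside each group is the mean with its SD, and the red dashed line is the level that the sum of the singles gives for DKO1. DKO1 lies far from that line in all 10 panels, with interactions from -4.27 for Kctd15 to 6.05 for Ddx3y.

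An interaction can come from 1 genotype that differs from 3 alike. With a distance of at least 1 from each of the others and a spread of at most 0.5 among them, WT stood apart in 34 of the 1250 genes (2.72%), ACLY KO in 25 (2%), ACSS2 KO in 45 (3.6%) and DKO1 in 37 (2.96%). For the other 1109 (88.7%), no single genotype stood apart by these limits. The count for DKO1 was 62 without DKO1 replicate 1. WT stood apart for Gja1, Itpripl2 and Scd1, ACLY KO for Col1a1, ACSS2 KO for Vldlr, and DKO1 for Tat, S100g, Ephx2, Chst11, Rab32 and Gprc5b.

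Cholesterol synthesis and uptake genes had the highest median interaction of the lists after the Y chromosome genes. ACSS2 loss lowered 15 of the 25 genes in WT cells (11% of all genes) and raised 0, at an adjusted p under 0.05. In ACLY KO cells it raised 13 (14.3% of all genes) and lowered 2. The interaction was above the sum in 19 of 25 genes and below it in 0, with a median of 0.69, against 12% above and a median of -0.0085 for all genes. The members lie on 15 chromosomes, and after the median of each gene's chromosome was subtracted, the median was 0.71. Without DKO1 replicate 4 and WT replicate 2 it was 0.81.

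Idi1, the isopentenyl-diphosphate isomerase (chr13:8885501-8892451), had 6805, 7784, 7276 and 7144 normalized counts in WT, 5561, 4995, 5366 and 5259 in ACLY KO, 4972, 4728 and 4694 in ACSS2 KO and 10229, 9969 and 10292 in DKO1. Both singles were below every WT library and DKO1 was above them all (interaction 1.54, standard error 0.0846, adjusted p = 6.8e-08). Sqle, squalene epoxidase (chr15:59315077-59331192), had 6485, 6493, 6592 and 6572 in WT, 8016, 7209, 7915 and 7707 in ACLY KO, 4767, 4941 and 4809.6 in ACSS2 KO and 11569.9, 11964 and 11409 in DKO1. No genotypes overlapped, with ACSS2 KO lowest and DKO1 highest (interaction 1.03, standard error 0.0738, adjusted p = 7.2e-07).

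ACSS2 loss had opposite effects on Insig1, the sterol-regulated retention protein, with -0.68 in WT and 0.63 in ACLY KO cells (interaction 1.32, adjusted p = 1.3e-06). Acat2, Mvd and Msmo1, enzymes of the start, middle and end of the pathway, had interactions of 0.93, 1.01 and 1.30. The 6 members that were not called included the regulator Srebf2 (-0.33, adjusted p = 0.29), Tm7sf2 (-0.73), Dhcr7 (0.34), Hsd17b7 (0.50) and Ebp (0.33).

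Of the integrated stress response and amino acid synthesis genes, many of them known targets of ATF4, 17 of 26 lay below the sum and 0 above it (background 15.1% and 12%), with a median interaction of -0.75. ACSS2 loss raised 20 of the 26 in WT cells (15.1% of all genes). In ACLY KO cells it raised 5 (14.3%) and lowered 4 (13.6%). The median was -0.73 after subtraction of chromosome medians and -0.75 without DKO1 replicate 4 and WT replicate 2.

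Chac1, which degrades glutathione (chr2:119351229-119354381), had 904, 824, 849 and 819 normalized counts in WT, 1222, 1254, 1235 and 1307 in ACLY KO, 2691, 2463 and 3047 in ACSS2 KO and 1654, 1625 and 1723 in DKO1. The genotypes did not overlap, and ACSS2 KO was highest (interaction -1.27, standard error 0.101, adjusted p = 1.7e-06). Slc7a11, the cystine and glutamate exchanger (chr3:49892526-50443614), had 347, 340.2, 377 and 391 in WT, 628, 635, 687 and 579 in ACLY KO, 745, 693 and 1084 in ACSS2 KO and 312, 282 and 278 in DKO1. Both singles lay above WT and DKO1 below it, without overlap between these 3 levels (interaction -2.30, standard error 0.183, adjusted p = 1.7e-06). Stc2, the secreted glycoprotein stanniocalcin 2 (chr11:31357307-31370074), had 158, 196, 157 and 192 in WT, 69.4, 57.6, 63.7 and 55.4 in ACLY KO, 713, 675 and 859.8 in ACSS2 KO and 57.1, 44.7 and 57.5 in DKO1. It was highest in ACSS2 KO, intermediate in WT, and low and overlapping in ACLY KO and DKO1 (interaction -2.30, standard error 0.189, adjusted p = 2.2e-06).

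Other members differed in how the ACLY single effect entered. Sesn2, a stress-induced inhibitor of mTORC1, rose in both singles (1.40 and 1.81) and was 0.87 in DKO1 against WT. Fgf21, the hormone of nutrient stress, was 1.96 and 2.34 in the singles and 1.69 in DKO1, with 9.20, 14.5, 2.29 and 13.97 normalized counts in the WT libraries. Shmt2, the mitochondrial serine hydroxymethyltransferase, had an interaction of -1.40 and the pseudokinase gene Trib3 one of -1.33. For Atf4 itself the interaction was -0.06 (adjusted p = 0.82), for Phgdh 0.27 (adjusted p = 0.41) and for Gdf15 0.58 (adjusted p = 0.27), and none of these passed the threshold. The 26 genes were listed with earlier results of these data known, and their counts are no independent evidence of a direction.

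**Figure D3:**
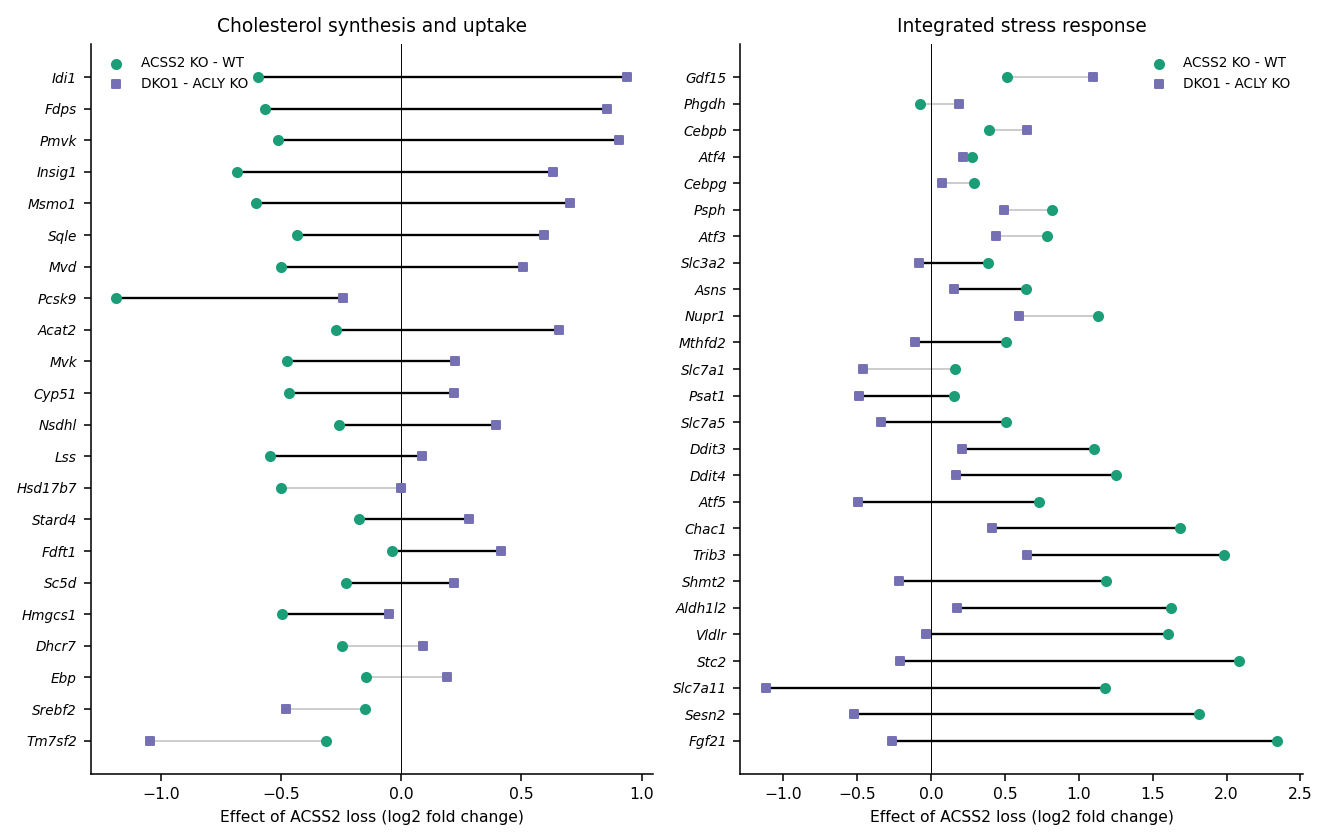
For the genes drawn of the cholesterol list (22 genes, left) and the integrated stress response list (26 genes, right), the circle is the effect of ACSS2 loss in WT cells and the square its effect in ACLY KO cells, as log2 fold changes; a black line joins them where the interaction had an adjusted p under 0.05 and a gray line where it had not. Squares lie right of circles for the 17 called cholesterol genes drawn and left of them for the 17 called stress response genes.

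Promoter sequence was read for both lists from RefSeq (GRCm38.p6, 250 bases before to 50 after each gene's start), since the called members of each list lay on 1 side of the sum. The letters TGATGNAA, the amino acid response element read by ATF4 and C/EBP proteins, were searched on both strands. They were present in 8 of the 24 stress response genes with an entry and in 6 of the 15 called ones, against 4.51% of 27025 genes. Many genes of this list are known ATF4 targets, so the comparison with all genes is no evidence about the interaction. The sterol response element letters TCACNCCAC were present in 1 of 17 cholesterol genes, Hmgcs1, against 1.44% of genes. A match is a description of letters in this window and not a site shown to be bound. The matches that lie before the start site of called genes are given, 5′ to 3′ on the strand of the gene, with the matched letters or their reverse complement in capitals.
Fgf21 (minus strand, chr7:45615612-45615639): gacccccccaTTGCATCAtccgtccagg
Slc7a11 (minus strand, chr3:50443643-50443670): cctggagaatTTGCATCAtcatgcagcc
Slc7a11 (minus strand, chr3:50443662-50443689): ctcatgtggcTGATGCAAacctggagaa
Vldlr (plus strand, chr19:27216810-27216837): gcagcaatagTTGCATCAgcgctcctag
Chac1 (plus strand, chr2:119351039-119351066): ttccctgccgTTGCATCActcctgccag
Asns (minus strand, chr6:7693215-7693242): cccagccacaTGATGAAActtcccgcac
Hmgcs1 (plus strand, chr13:119690204-119690232): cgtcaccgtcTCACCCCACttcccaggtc

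The bases between a match and the start site of its promoter entry numbered 131 for Fgf21, 185 for Chac1, 192 for Vldlr and 15 for Asns, and Slc7a11 held a pair of matches, in overlapping runs, at 39 and 58 bases. The start site of the RefSeq entry of Chac1, position 119351242, lies inside the gene interval given for it and not at its end. That interval is from another annotation, GENCODE. These genes spanned interactions from -2.61 for Fgf21 to -0.49 for the asparagine synthetase gene Asns. Atf3 (-0.35, adjusted p = 0.14) and Nupr1 (-0.54, adjusted p = 0.09) held the letters and were not called. Stc2, Sesn2 and Shmt2 were called, and these letters were not in their windows.

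Antigen presentation genes lay below the sum in 7 of 14 cases (50%, against 15.1% of all genes) and above it in 0 (against 12%), with a median of -0.46. Tap1, a subunit of the peptide transporter (chr17:34187553-34197225), had 65.5, 50.9, 51.6 and 61.5 normalized counts in WT, 112, 116, 158 and 112 in ACLY KO, 145, 136 and 146 in ACSS2 KO and 61.7, 66.0 and 78.2 in DKO1. The singles were high and overlapped, and DKO1 overlapped WT (interaction -2.15, standard error 0.203, adjusted p = 7.2e-06). Psmb8, an immunoproteasome subunit, and Tap2, the partner of Tap1, had interactions of -2.72 and -1.69. Of the 7 called genes, Tap1, Tap2, Psmb8, Psmb9 and Tapbp lie on chromosome 17, most of them side by side, so they are not separate observations. The class I genes H2-K1 and H2-D1 were not called (0.25 and 0.31). In the wider interferon response list 1 of 33 genes (3.03%) lay above the sum and 4 (12.1%) below it, both under the shares over all genes, Gbp7 with -1.98.

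Genes of the TCA cycle and pyruvate entry lay below the sum in 10 of 29 cases (34.5%, against 15.1% of all genes). They lay above it in 3 (10.3%, against 12%), with a median of -0.19. When DKO1 replicate 4 and WT replicate 2 were left out, 19 lay below. That fit called 2898 of all 12711 genes below the sum, against 1918 in the main fit. The kinases that switch off pyruvate dehydrogenase split. Pdk2 had -1.70 (adjusted p = 6.3e-05) and Pdk3 -1.09 (adjusted p = 2.9e-05), whereas Pdk1 had 0.77 (adjusted p = 3.6e-05). Citrate synthase (Cs), which makes the substrate of ACLY, had -0.78, and the isocitrate dehydrogenase genes went apart, with 0.68 for cytosolic Idh1 and -0.67 for mitochondrial Idh2. Glycolysis and gluconeogenesis genes lay below the sum in 7 of 22 cases (31.8%) and above it in 4 (18.2%), among them Pklr, the liver pyruvate kinase (-2.15), and Pck2, the mitochondrial PEP carboxykinase (-1.44).

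Lists of genes that supply or use fatty acids and acetyl-CoA held calls in both directions, against 12% of all genes above the sum and 15.1% below it. Cpt1c, the brain form of carnitine palmitoyltransferase 1 (chr7:44959372-44974851), had 64.4, 79.0, 58.2 and 68.8 normalized counts in WT, 10.4, 4.72, 10.2 and 4.88 in ACLY KO, 8.97, 9.38 and 9.34 in ACSS2 KO and 87.5, 55.2 and 63.9 in DKO1. The singles were low and WT and DKO1 were high and overlapped, which gave an interaction of 5.82 (standard error 0.377, adjusted p = 2.9e-07). Of the 25 mitochondrial fatty acid oxidation genes, 4 (16%) lay above the sum and 2 (8%) below it. Scd1, the stearoyl-CoA desaturase (chr19:44394455-44407879), had 156, 126, 145 and 160.4 in WT, 21.4, 20.8, 18.9 and 18.3 in ACLY KO, 22.3, 18.6 and 17.8 in ACSS2 KO and 22.4, 15.5 and 22.8 in DKO1. WT alone was high (interaction 2.86, standard error 0.227, adjusted p = 1.7e-06), and 4 of 15 fatty acid synthesis genes (26.7%) lay above the sum and 1 (6.67%) below it. Peroxisomal lipid oxidation genes gave 1 above (4.55%) and 4 below (18.2%) of 22. In the cytosolic acetyl-CoA supply list 3 of 13 (23.1%) lay above and 2 (15.4%) below, with Aacs, the acetoacetyl-CoA synthetase, at 0.47 and the lactate and acetate transporter gene Slc16a1 at -0.44. Among coenzyme A genes, 4 of 16 (25%) lay above and 5 (31.2%) below, and the pantetheinase genes Vnn1 and Vnn3 went opposite ways (1.12 and -2.21).

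NRF2 target and glutathione genes lay above the sum in 8 of 24 cases (33.3%, against 12% of all genes) and below it in 4 (16.7%, against 15.1%), with a median of 0.25. Srxn1, the sulfiredoxin gene, had 1.15 and Pgd, a pentose phosphate enzyme gene, 1.28, both with a fall after ACSS2 loss in WT cells and a rise in ACLY KO cells. The quinone reductase gene Nqo1 had 34.8, 16.04, 21.2 and 28.0 normalized counts in WT, 40.4, 40.5, 36.0 and 38.3 in ACLY KO, 21.5, 9.25 and 18.8 in ACSS2 KO and 118, 97.6 and 131 in DKO1. DKO1 was far above all other libraries, and the interaction was 2.13 (standard error 0.398, adjusted p = 0.0015). Against this direction stood Slc7a11, which the stress response list also holds, and G6pdx (-1.24), the first enzyme of the pentose phosphate pathway.

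S phase genes lay below the sum in 12 of 35 cases (34.3%, against 15.1% of all genes). They lay above it in 1 (2.86%, against 12%), with a median of -0.21. When DKO1 replicate 4 and WT replicate 2 were left out, 21 lay below, in a fit that called 2898 of all 12711 genes below. The replication licensing genes Mcm6, Mcm3 and Cdt1 had -0.55, -0.55 and -0.73. E2f1 was the gene above the sum (0.54). G2/M genes gave 2 above and 6 below of 32, and D cyclins and CDK inhibitors 3 and 3 of 20, among them Ccnd2 (-0.99), Mycn (-1.37) and Myc (0.55). Of 30 histone acetylation enzymes, 2 lay above the sum and 5 below it, near the background of 12% and 15.1%.

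Signaling and matrix genes carried some of the largest interactions in both directions. TGF-beta and BMP genes lay below the sum in 13 of 32 cases (40.6%, against 15.1% of all genes) and above it in 6 (18.8%, against 12%). Inhba, an activin subunit (chr13:16011851-16031621), had 597, 697, 708 and 705 normalized counts in WT, 133, 134, 141 and 135 in ACLY KO, 127, 155 and 115 in ACSS2 KO and 235, 208 and 179 in DKO1. The singles overlapped at the lowest level, DKO1 lay above them and WT was highest (interaction 2.95, standard error 0.161, adjusted p = 6.8e-08). Tgfbi had 3.31 and the ligand gene Bmp2 -2.38. Matrix and integrin genes gave 7 above (16.3%) and 11 below (25.6%) of 43. Col1a1, the collagen I chain (chr11:94936224-94953042), had 458, 428, 374 and 454 in WT, 2497, 2260.2, 2651 and 2409 in ACLY KO, 498, 537 and 532 in ACSS2 KO and 504, 493 and 434 in DKO1. ACLY KO alone was high (interaction -2.65, standard error 0.122, adjusted p = 1.6e-08), and Col6a2 (-3.16) was also highest in ACLY KO. Wnt and Notch genes gave 4 above (14.3%) and 8 below (28.6%) of 28. Of the fibroblast and stellate markers, 4 of the 7 tested lay below the sum and 1 above it, and their summed level was 2191 to 2503 in WT, 3603 to 3955 in ACLY KO, 5308 to 6242 in ACSS2 KO and 2132 to 2243 in DKO1. The part of such cells in these matrix values was not tested.

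Liver genes were divided. Alb, the albumin gene (chr5:90460897-90476602), had 30.7, 27.7, 36.9 and 30.3 normalized counts in WT, 22.5, 25.4, 24.8 and 20.8 in ACLY KO, 129, 137 and 135 in ACSS2 KO and 7.10, 16.4 and 10.5 in DKO1, a low level in every library for a hepatocyte gene. ACSS2 KO was highest and DKO1 lowest without overlap (interaction -3.11, standard error 0.301, adjusted p = 8.9e-06). Apob, the apolipoprotein B gene (chr12:7977648-8016835), had 122, 55.4, 138 and 134 in WT, 88.7, 68.1, 95.2 and 68.3 in ACLY KO, 25.2, 30.6 and 34.6 in ACSS2 KO and 387, 366 and 94.3 in DKO1. It ran the opposite way, lowest in ACSS2 KO, and DKO1 replicate 4 fell within the WT range (interaction 3.36, standard error 0.620, adjusted p = 0.0014, and 4.03 without that library). Hepatocyte transcription factor genes gave 3 above (13.6%, against 12% of all genes) and 6 below (27.3%, against 15.1%) of 22. Prox1 had -3.18 (adjusted p = 1.1e-05), the coactivator gene Ppargc1a -2.38 (adjusted p = 3.0e-06), Pparg 2.04 and Hnf4a 1.78. Hnf4a was low in all genotypes without ACLY, ACSS2 or both, so its value came from single falls that did not add.

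**Figure D4:**
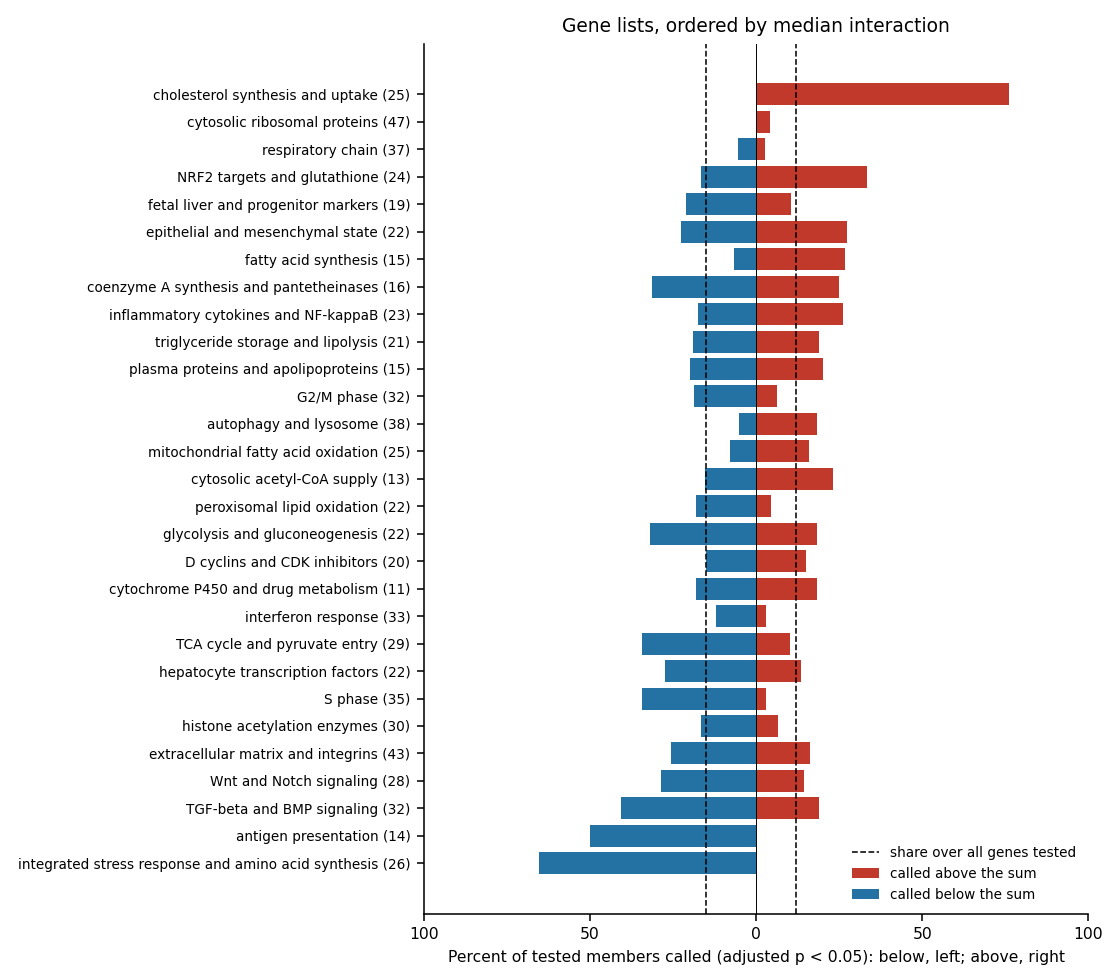
Each bar is the percent of the tested members of a list called above the sum (red, right of 0) or below it (blue, left of 0), with the number tested after the name and the lists ordered by median interaction; dashed lines are the shares over all 12711 genes, 12% above and 15.1% below. The cholesterol list reaches 76% above, and the stress response list 65.4% below.

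The remaining lists are read against the same shares of 12% above and 15.1% below over all genes. Among genes of the epithelial and mesenchymal state, 6 of 22 lay above the sum and 5 below it, with Cdh1, the E-cadherin gene, at 1.68, Krt7, a biliary keratin gene, at 1.59 and Ocln, a tight junction gene, at -2.48. Inflammatory and NF-kappaB genes gave 6 above and 4 below of 23, autophagy and lysosome genes 7 and 2 of 38, and triglyceride genes 4 and 4 of 21. Fetal liver and progenitor markers gave 2 above and 4 below of 19, cytochrome P450 and drug metabolism genes 2 and 2 of 11, and plasma protein genes 3 and 3 of 15. The respiratory chain gave 1 above and 2 below of 37, below the background in both directions. Of the cholangiocyte markers 4 of 9 lay above the sum and 0 below it, with summed levels of 38070 to 50190 normalized counts in WT and 45910 to 71820 in DKO1, and their part in the epithelial values was not tested.

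Cytosolic ribosomal protein genes, with 47 tested, had a median interaction of 0.56, with 2 called above the sum (4.26%, against 12% of all genes) and 0 below it. The median was -0.02 without DKO1 replicate 4 and WT replicate 2, so that its direction depended on these libraries. Called genes above the sum numbered 6 in that fit, 10 without DKO1 replicate 1 and 20 after the transcript length correction. That correction was made within genotypes and cannot move a genotype mean, so the median of 0.56 could not change. It altered only the spread between libraries, and the correlation of the interaction with length stayed at -0.283.

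Departures were spread unevenly over chromosomes. On chromosome 13, 30.8% of 477 genes lay above the sum and 7.76% below it (median 0.29), and on chromosome 3, 26.9% of 631 lay above and 9.03% below (median 0.26). On chromosome 10, 25.4% of 614 genes lay below the sum and 7.82% above it, and on chromosomes 1 and 14 the medians were -0.21 and -0.23. Here too clone and genotype cannot be told apart.

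**Figure D5:**
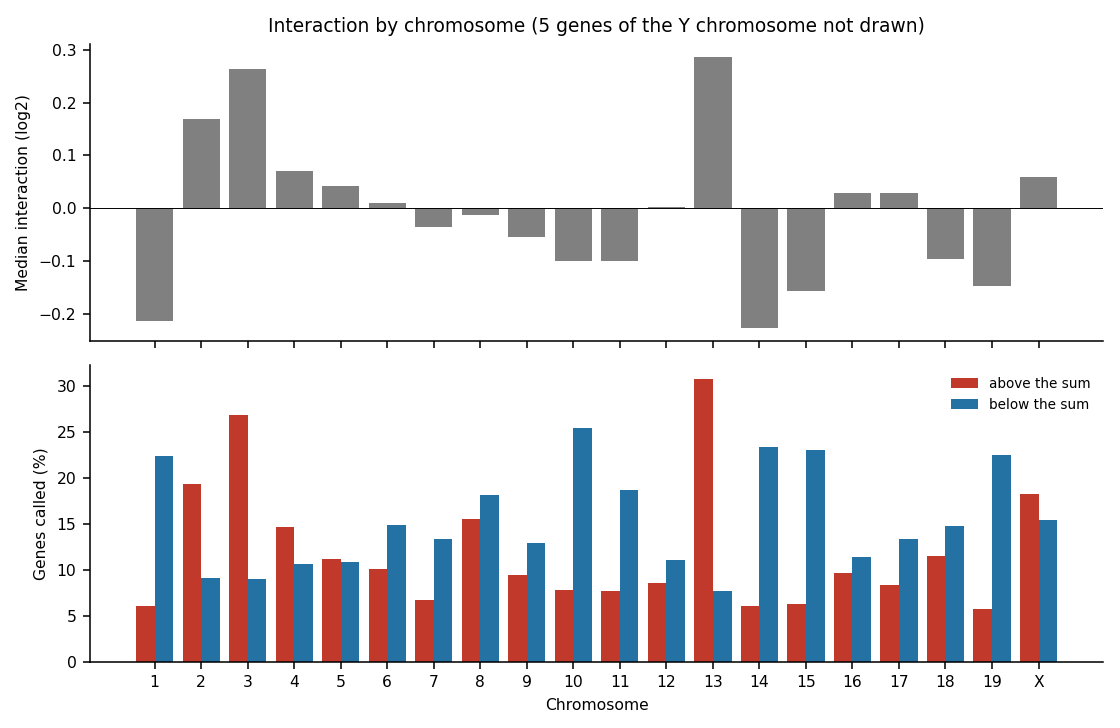
The upper panel shows the median interaction (log2) of the genes tested on each autosome and the X chromosome, and the lower panel the percent of them called above (red) and below (blue) the sum. Of those drawn, chromosomes 13 and 3 have the highest medians (0.29 and 0.26) and chromosome 14 the lowest (-0.23); the 5 tested genes of the Y chromosome, with a median of 6.02, are not drawn.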

How the data were processed

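RNA-seq of poly(A) RNA was measured in 14 libraries of 4 genotypes (4 WT, 4 ACLY KO, 3 ACSS2 KO and 3 DKO1), grouped by the labels. The deposited values are signal in the form of normalized counts per gene symbol, which the authors made by aligning reads with STAR to mm10 and scaling counts per gene with DESeq; the scaling of a library differed between genes. The submitters' processing notes name DESeq2 1.0.1, DESeq, GRCm38 and mm10. How reads were assigned to genes, and the annotation, are not given in the sources used here. Whole reads could not be recovered, so no count test was run. Of the symbols, 26 were dates made by spreadsheet software and stayed unnamed, and 5487 were at 0 in every library.

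Genes with a mean of at least 10 were tested on log2(normalized count + 1) with limma 3.58.1 (R 4.3.3, moderated with an intensity trend), with 1 spread estimated over all libraries and Benjamini-Hochberg adjustment over all tested genes. The constant of 1 shrinks fold changes of low genes. Single effects and the DKO1 effect against WT share the WT libraries. Named genes had a mean of at least 50, an absolute interaction of at least 1 and a sign kept in all 14 fits that left out 1 library, and were the 4 largest of each pattern and direction. Per list the 3 members of lowest adjusted p were added, as were Acly and Acss2. A few genes that this rule named or a list holds are not reported here, though they count in the totals. Other list members were named after their values were seen. The pattern rules, gene lists and tests were chosen with earlier results of these data known. Gene intervals are from GENCODE, and promoters with the positions of their matches are from RefSeq, both on GRCm38. The procedure was tested on simulated data. Alternatives were other constants, filters, scalings, a replicate block, left-out libraries, length correction, library weights, no intensity trend and other limits. Leaving out WT replicate 2 and DKO1 replicate 4 together and subtracting chromosome medians were chosen after the data were seen. Depth limits the precision of genes near the filter.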

Additional observations from a re-analysis of the deposited data

Results flagged for a closer look

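The effect of ACSS2 loss differed between WT and ACLY KO cells, by the interaction term of the limma fit, for 1524 genes above the sum and 1918 below it (Benjamini-Hochberg adjusted p under 0.05). The 18 genes for which values were given by pattern had been chosen by this test, so their passing it was fixed in advance. Their interactions are differences between the 2 backgrounds on the log2 scale. These were 3.93 for Gja1 and -3.99 for Abat among buffered genes, and 6.05 for Ddx3y, 6.02 for Kdm5d, -4.27 for Kctd15 and -4.24 for Ogdhl among reversed genes. They were 2.58 for Hist1h2bc, 2.47 for Guca2b, -2.085 for Rnf219 and -1.76 for Shtn1 among synergistic genes, and 3.60 for Tat, 3.32 for S100g, -2.71 for Chst11 and -2.705 for Casd1 among emergent genes. With opposed singles they were 2.14 for Krt4, 2.07 for Sbsn, -2.77 for Cd248 and -2.66 for Sall2.

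A library stood far from the other 3 of its genotype in 2 of the 36 gene and genotype groups of 4 that were looked at. These were Ogdhl in WT replicate 4, with 139.5 normalized counts, and Casd1 in ACLY KO replicate 3, with 606.4. By chance about 1 in 20 such groups would hold one. ACSS2 KO and DKO1, with 3 libraries each, were not looked at in this way. The high values of DKO1 replicate 4 given above for Guca2b and S100g are therefore outside this count.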

How the results depend on the processing

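No call of the genes named reversed its sign where it had passed the threshold. For the pattern examples, a kept sign in the 14 fits that left out 1 library was part of the choice. Over the named genes and all alternatives, 3138 values that had passed kept their direction and side of the threshold and 55 no longer passed, while 12 of the values that had not passed did so. Without a filter on low values, ACLY KO stood apart in 40 genes, ACSS2 KO in 68 and DKO1 in 70, and 1 ribosomal gene was called. With 10 in every library, the strict count above the sum was 124, synergistic genes numbered 96 and WT stood apart in 18. With a constant of 5, ACLY KO stood apart in 38. With equal library totals, 973 genes lay above the sum, 107 of them on chromosome 3, and 1 ribosomal gene was called. After the length correction, which alters the spread within genotypes but no interaction, 2292 genes lay above the sum, with 20 ribosomal genes. With library weights, 2520 genes lay above the sum, 274 of them on chromosome 3. Below it lay 2804 genes, with 21 S phase and 19 TCA cycle genes among them. Those weights were 0.0325 for DKO1 replicate 4, 0.102 for DKO1 replicate 3 and 0.184 for WT replicate 2, and their estimation stopped before its tolerance. Without WT replicate 2 and DKO1 replicate 4 the counts were 2713 above and 2898 below, 284 above on chromosome 3, 6 ribosomal genes above, and 21 S phase and 19 TCA cycle genes below. At an adjusted p under 0.01, 860 genes lay above and 1189 below. With a change limit of 1, reversed genes numbered 49, synergistic 76 and emergent 311, and with 0.25 reversed genes numbered 378 and emergent 18. With 1 library left out, ribosomal calls ranged from 1 to 10, emergent genes from 79 to 171 (137 without DKO1 replicate 3) and genes with DKO1 apart from 30 to 62, with the highest of all 3 without DKO1 replicate 1. The cause of these shifts was not tested. Same-numbered libraries had correlations of deviations from -0.431 to 0.447. Deviations also followed transcript length, so these values cannot settle whether the numbers pair libraries. With the replicate block, 1353 genes lay above and 1793 below. Each genotype is 1 line, and genes near the filter are limited by depth.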
